A study of Mus musculus with 8 samples.

Results

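The calcium/calmodulin-dependent kinases are serine/threonine kinases that calmodulin switches on when calcium enters a cell. The 10 genes described here encode the upstream kinases Camkk1 and Camkk2, the kinases of the CaMKI group (Camk1, Camk1d and Camk1g), the nuclear kinase Camk4, and the CaMKII subunits Camk2a, Camk2b, Camk2d and Camk2g. They were taken by name from 21631 protein-coding genes. H3K27ac is histone H3 acetylated at lysine 27, a mark of promoters and enhancers in use. Every peak of it was collected that overlapped a gene span or the 20 kb to each side of it. The 8 peak lists held 48 to 91 such peaks each, 518 in all, which merged into 148 regions out of 74827 near protein-coding genes.

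The peaks came from chromatin immunoprecipitation and sequencing of primary neurons cultured from mice, with 2 libraries in each of 4 groups: CTX KCl, CTX unstimulated, MGE KCl and MGE unstimulated. All cultures were from C57/BL6 embryos and all, controls included, had been silenced overnight on day 6 in vitro with TTX at 1 µM, which blocks sodium channels, and D-AP5 at 100 µM, which blocks NMDA receptors. On day 7 the KCl groups were depolarised with 55 mM KCl for 2 h and the unstimulated groups received nothing further. MGE is the usual abbreviation of the medial ganglionic eminence, the embryonic source of many cortical GABAergic interneurons, and CTX that of the cortex. CTX library titles name embryonic day 14, whereas the source field gives embryonic day 16 for all libraries and the cell type field calls the MGE libraries cortical neurons as well. The titles number the libraries of a group as biological replicates and do not say whether cultures or embryos were separate, so that the p-values below measure only the spread between these libraries.

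On chromosomes 1 to 19 and X a library had between 36033 and 66823 peaks, which together spanned 21.1 to 44.7 Mb. In CTX, the libraries numbered 2 covered 44.7 Mb with KCl and 42.9 Mb without, against 28.5 and 23.5 Mb in those numbered 1. Called length at a gene was therefore divided by the Mb that the library called in all, and is given as bp per Mb called. Marker genes of each lineage had more called length in the culture named for it. Summed called length at 8 genes of cortical projection neurons was 548 to 949 bp per Mb called in CTX and 351 to 499 in MGE libraries, and at 12 genes of MGE-derived and GABAergic neurons it was 1480 to 1730 in CTX and 2360 to 2770 in MGE. Neurod6 and Emx1 had no peak in any MGE library and Nkx2-1 had none in any CTX library. Glial genes also differed, with 493 to 596 against 203 to 413 at 6 astrocyte genes and 377 to 577 against 120 to 220 at 6 genes of the oligodendrocyte lineage. At 4 microglial genes the sums were 68.4 to 104 in CTX and 119 to 175 in MGE, and at 4 endothelial genes 106 to 241 and 43.5 to 140, with Cldn5 and Cdh5 without a peak in either culture. In bulk chromatin, fewer cells of a type and less acetylation per cell cannot be told apart.

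Calcium entering through NMDA receptors and voltage-gated channels binds calmodulin, which activates CaMKK, CaMKI, CaMKIV and CaMKII. CaMKK phosphorylates CaMKI and CaMKIV in their activation loop. CaMKIV phosphorylates the transcription factor CREB in the nucleus, and the CaMKII holoenzyme, which phosphorylates itself, is abundant at synapses and needed for long-term potentiation. Depolarisation with KCl opens voltage-gated calcium channels and is a standard way to engage these kinases in culture.

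Start windows of 300 bp, from 250 bp before to 50 bp after a transcript start, were found for 7 of the 10 genes in RefSeq (GRCm38.p6, which has the coordinates of mm10), with 2 windows for Camk1d. Those of Camk2a, Camk2g and Camk4 were not matched. The 250 bases before 4 of these starts are shown because the peaks at them stand for the patterns described below. The start window of Camk2d was called in all 8 libraries and that of the first start of Camk1d in 7. An inner start of Camk1d was called in the 4 CTX libraries and no MGE library. The window of Camkk1 was entered by a peak in 3 libraries, both MGE KCl libraries among them, but these peaks ended before the start itself. Each printed sequence runs 5′ to 3′ on the gene's strand, and capitals mark CpG pairs.
Camk2d, chr3:126596701-126596950, plus strand: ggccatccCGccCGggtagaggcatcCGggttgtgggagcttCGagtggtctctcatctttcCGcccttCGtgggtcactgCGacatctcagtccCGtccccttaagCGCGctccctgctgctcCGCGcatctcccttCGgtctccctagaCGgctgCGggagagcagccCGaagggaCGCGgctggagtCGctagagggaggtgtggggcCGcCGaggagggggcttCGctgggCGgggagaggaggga
Camk1d first start, chr2:5714763-5715012, minus strand: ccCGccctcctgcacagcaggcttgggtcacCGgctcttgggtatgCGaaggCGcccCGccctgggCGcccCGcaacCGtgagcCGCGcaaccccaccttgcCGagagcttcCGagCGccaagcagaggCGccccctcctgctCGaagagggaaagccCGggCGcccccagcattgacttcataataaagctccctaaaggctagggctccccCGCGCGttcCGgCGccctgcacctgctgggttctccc
Camk1d inner start, chr2:5676047-5676296, minus strand: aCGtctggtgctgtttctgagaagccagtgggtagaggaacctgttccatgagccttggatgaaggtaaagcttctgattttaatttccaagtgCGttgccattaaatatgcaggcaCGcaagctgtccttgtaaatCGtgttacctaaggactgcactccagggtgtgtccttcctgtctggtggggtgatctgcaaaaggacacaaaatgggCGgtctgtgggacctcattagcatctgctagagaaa
Camkk1, chr11:73018738-73018987, plus strand: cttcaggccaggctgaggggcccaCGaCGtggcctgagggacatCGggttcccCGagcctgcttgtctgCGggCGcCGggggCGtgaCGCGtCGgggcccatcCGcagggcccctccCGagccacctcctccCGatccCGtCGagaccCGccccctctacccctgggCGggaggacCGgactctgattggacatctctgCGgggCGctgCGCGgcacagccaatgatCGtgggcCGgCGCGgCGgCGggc

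The start windows split by base composition. The full window of 300 bp held 31 CpG pairs at Camk2d, 29 at the first start of Camk1d and 36 at Camkk1, but 5 at the inner start of Camk1d, against a median of 7 over 32619 windows of 26794 genes. GC content was 70.3%, 71.3% and 75.3% in the first 3 and 48.7% at the inner start, with a median of 53% over all windows. Of the windows not printed, Camk2b held 51 CpG pairs, Camkk2 42, Camk1 15 and Camk1g 1, so that Camk1g, with 44.7% GC, was the poorest in CpG pairs of the 8. The cyclic AMP response element TGACGTCA, the AP-1 motif TGANTCA and the E-box CACGTG, which bind families of factors that neuronal activity engages, were searched on both strands and lay in none of the 8 windows, while 1.8%, 7.85% and 7.2% of all windows held them. The shorter core TGACG, which is also part of the full element, lay in the windows of Camk1 and Camkk1 and in 20.9% of all windows. Such matches describe letters in these windows only.

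Called length was greater after the starts than before them, by margins that differed from start to start. The mean called length over the 8 libraries was 918 bp in the 1 kb after the start of Camk2d and 520 bp in the 1 kb before it. At the first start of Camk1d it was 950 and 264 bp, and at Camk1g 905 and 39.2 bp. Camkk2 had 620 bp after and 149 bp before, Camk1 622 and 117 bp, Camk2b 774 and 266 bp, Camkk1 241 and 129 bp, and the inner start of Camk1d 287 and 247 bp. All 8 starts thus had more called length after than before, as did 66% of the 15957 annotated starts with a peak within 1 kb, where the medians were 455 and 245 bp. The start window of 1 of the 8, Camk2d, was called in all 8 libraries, as were 17.5% of all start windows. The inner start of Camk1d was called only in CTX, in all 4 of its libraries, which held for 0.481% of all start windows.

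Per length of window, the genes of the kinases differed in how much of them was called. Camk1 had 5.97 ± 1.0% of its window called (SD over the 8 libraries, range 4.66 to 7.26%), Camk1g 5.65 ± 1.85% (3.47 to 8.53%) and Camk2b 5.42 ± 2.34% (2.92 to 9.48%). Camkk2 followed with 3.49 ± 0.98%, Camk2g with 3.17 ± 0.93%, Camkk1 with 2.3 ± 0.75% and Camk2a with 2.24 ± 0.577%. The long genes were lowest, with 1.68 ± 0.645% at Camk1d, 1.55 ± 0.679% at Camk4 and 1.32 ± 0.589% at Camk2d. No neighbours in this order differed by more than the larger of their SDs. The median was 2.74% over the 10 genes and 2.18% over 17280 protein-coding genes with any peak. Part of the called length in the windows of the short genes lay at neighbouring genes. With bases inside other protein-coding genes and 2 kb around them left out, 31% of the called bases stayed at Camkk2, 49.9% at Camkk1, 52.4% at Camk1 and 59% at Camk1g, against 76.2% to 79.2% at Camk2g, Camk4 and Camk2b, 97.9% at Camk2a and 100% at Camk1d and Camk2d.

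**Figure D1:**
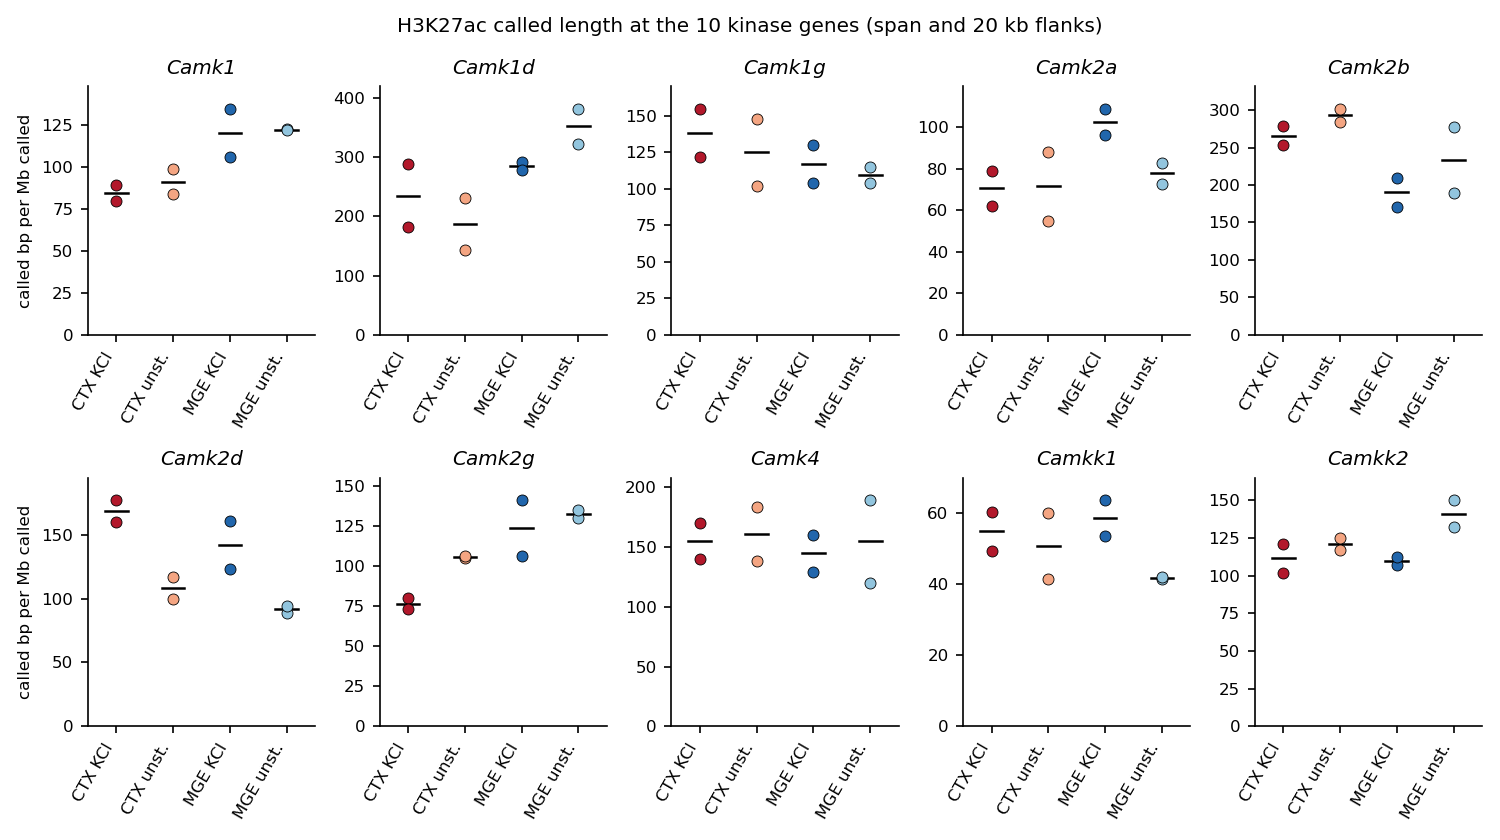
Called length of H3K27ac peaks in each gene's span and 20 kb flanks, in bp per Mb called in the library (y axis, from 0, own scale per gene), for the 2 libraries of each group (points) with their mean (bars). Camk2d was the only gene with both KCl libraries above both unstimulated ones in each culture, and Camk1 and Camk2g had all 4 MGE libraries above all 4 CTX libraries.

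Against this background, KCl was compared with the unstimulated state in each culture. In CTX the KCl libraries lay above the unstimulated ones at 1 of the 10 genes, Camk2d, and below them at 2, Camk2b and Camk2g. Over all genes tested these shares were 23.1% and 13%. The split between higher and lower depended on the scaling and the threshold: it was 2 higher and 0 lower without division by the Mb called, 4 and 0 with only peaks of a −log10 q of at least 5, 5 and 0 with equal called bases per library, and 1 and 4 with peaks counted in place of bases. In MGE the libraries were separated upward at 3 genes, Camk2a, Camk2d and Camkk1, and downward at 2, Camk1d and Camkk2, against 22.7% and 19.9% of all genes. Here the split was 4 and 0 without division, 0 and 3 at that q, 2 and 3 with equal called bases, and 1 and 6 with peaks counted. Only Camk2d was separated upward in both cultures, and no member downward in both, where the shares over all genes were 8.99% and 4.42%. With peaks counted, 0 genes were higher and 4 lower in both cultures. Shares over all genes are not given here at these other settings. The counts at them are therefore not read as results about the kinases. The median ratio of KCl to unstimulated over the 10 genes was 0.977 in CTX and 0.96 in MGE, against 1.06 and 1.01 over all genes. None of the 10 passed an adjusted p of 0.05 in the exact permutation tests, whose smallest unadjusted p is 0.33 within a culture and 0.056 over both, so that the design could not call any gene.

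Camk2d encodes the CaMKII delta subunit, which is broadly expressed and prominent in heart and brain. Its gene spans 251 kb at chr3:126595487-126846326. Called length was 177 and 160 bp per Mb called with KCl and 117 and 100 without in CTX, and 161 and 123 with KCl and 88.8 and 94.3 without in MGE. Both KCl libraries were above both unstimulated libraries in each culture, with no overlap. The means were 168 ± 12.4 against 109 ± 12 in CTX and 142 ± 26.7 against 91.6 ± 3.91 in MGE (SD, n = 2 each, exact permutation p = 0.33 in each), a ratio of 1.55 in both. Over both cultures the exact permutation p was 0.056, the smallest possible, with an adjusted p of 0.41 over 17280 genes. The separation ended when only the 2 kb around either gene end was counted (ratio 1.01 in CTX and in MGE), in CTX with equal called bases per library (1.18), and in MGE with only peaks of a −log10 q of at least 5 (1.24) or with peaks counted in place of bases (1.51).

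The regions gained with KCl at Camk2d lay inside the gene, away from its ends. Of its 16 regions, all overlapping the gene span, 3 were gained with KCl in CTX, meaning that both KCl lists held a peak and neither unstimulated list did. They were chr3:126652652-126653078, with 299 and 427 bp called, chr3:126694071-126694603, with 389 and 475 bp, and chr3:126694931-126695531, with 481 and 568 bp. The last 2 lie within 1 kb of each other, 98.6 and 99.4 kb above the lower end of the span. Their fold enrichment, a value the authors' caller gives each peak, was 2.21 to 3.28 at these 3 regions. Here and below it is that of a library's highest peak in a region. No MGE library had a peak at any of the 3. In MGE, 1 other region was gained, chr3:126672322-126672872, with 543 and 399 bp and fold enrichments of 3.46 and 3.52, and no CTX library had a peak there. Around the start, chr3:126596352-126598538 was called in all 8 libraries. Its called length was 1974 and 2175 bp with KCl and 1523 and 1940 without in CTX, and 1793 and 2102 with KCl and 1774 and 1454 without in MGE. Called length, summed over the 1 to 3 peaks that a library had in the region, was greatest in the KCl libraries of each culture. The highest fold enrichment per library was 3.11 to 3.95. No region of Camk2d was lost with KCl in either culture.

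**Figure D2:**
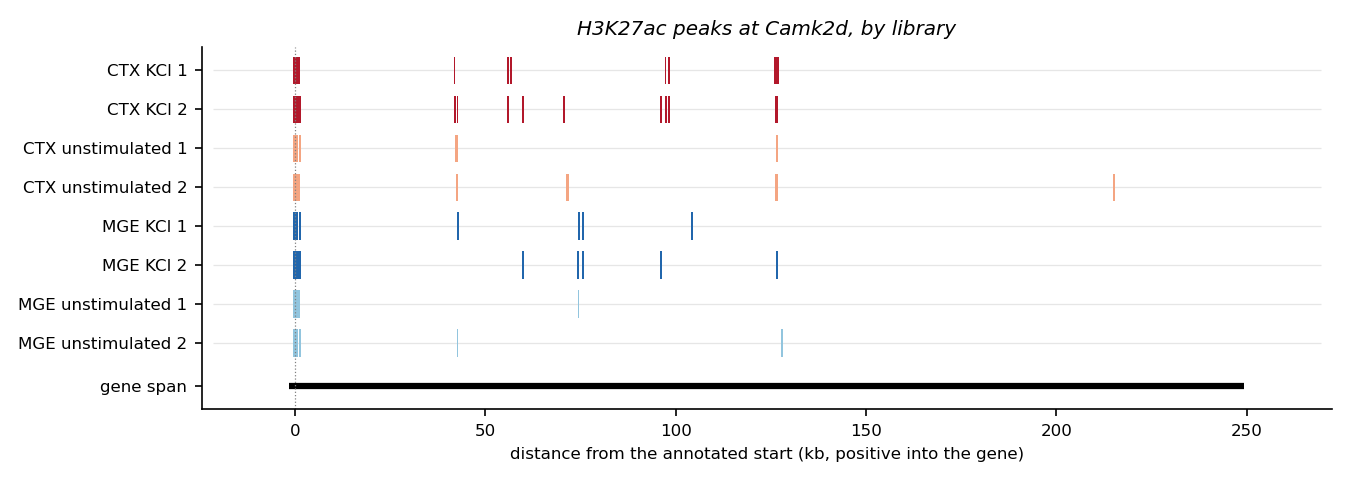
Peaks of each library (rows, coloured by group) along Camk2d, by distance in kb from the annotated start (dotted line), positive into the gene, with the gene span as a black bar; the shortest peaks are drawn slightly wider than to scale. All 8 libraries have a peak at the start, and the 3 regions gained with KCl in CTX and the 1 gained in MGE lie inside the gene at different places.

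The other CaMKII genes did not share this pattern. Camk2a encodes CaMKII alpha, the major subunit of excitatory forebrain neurons, at chr18:60925307-60988152. Its values were 78.9 and 62.3 bp per Mb called with KCl and 88.3 and 54.7 without in CTX, and 96.5 and 109 with KCl and 72.9 and 82.6 without in MGE. The CTX groups overlapped (ratio 0.988), and both MGE KCl libraries were above both unstimulated ones, at 103 ± 8.87 against 77.8 ± 6.85 (ratio 1.32, exact permutation p = 0.33, n = 2). This direction turned with the gene span alone (0.833), with 50 kb flanks (0.877) and with peaks counted in place of bases (0.79). The region at the lower end of its span, chr18:60924528-60926490, was called in all 8 libraries. It measured 1741 and 1875 bp with KCl and 1392 and 1337 without in CTX, and 1187 and 1610 with KCl and 273 and 567 without in MGE. Further inside, chr18:60934959-60935573 was lost with KCl in CTX (441 and 386 bp without it) and chr18:60953122-60953842 in MGE (465 and 387 bp). The other culture had no peak at either.

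Camk2b encodes CaMKII beta, the actin-binding subunit, at chr11:5969629-6066357. Called length was 279 and 253 bp per Mb called with KCl and 284 and 302 without in CTX, and 210 and 171 with KCl and 277 and 189 without in MGE. The CTX KCl libraries lay just below the unstimulated ones, at 266 ± 18 against 293 ± 12.8 (ratio 0.908, exact permutation p = 0.33, n = 2), and the MGE groups overlapped (0.816). The CTX groups overlapped without division by the Mb called (0.98), at a −log10 q of at least 5 (0.855), with equal called bases (0.84) and at the gene ends (0.883). At its start, chr11:6065839-6066404 was lost with KCl in CTX (387 and 566 bp without KCl) but called in 3 of the 4 MGE libraries, 1 of them KCl, and the adjoining chr11:6063760-6065625, inside the gene, was called in all 8 libraries. The latter had 1532 and 1796 bp with KCl and 956 and 1734 without in CTX, and 1558 and 1733 with KCl and 952 and 704 without in MGE. Within the gene, chr11:5999542-6000685 and chr11:6000854-6001841 were also called in all 8 libraries, with 500 to 1042 bp and 423 to 890 bp. A further region in all 8 lists, chr11:6086124-6088283, begins 19.8 kb above the span, so that most of it lies beyond the 20 kb flank. This region overlaps the noncoding gene Gm46269. Its called length, taken over the whole region, was lower with KCl in both cultures. It was 1327 and 1582 against 1779 and 2024 bp in CTX and 1577 and 1242 against 1964 and 1754 bp in MGE.

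Camk2g encodes CaMKII gamma, which carries calmodulin to the nucleus in neurons, at chr14:20734873-20794157. Its values were 79.7 and 73.1 bp per Mb called with KCl and 105 and 106 without in CTX, and 106 and 141 with KCl and 130 and 135 without in MGE. In CTX the KCl libraries were below the unstimulated ones, at 76.4 ± 4.64 against 106 ± 0.651 (ratio 0.723, exact permutation p = 0.33, n = 2), and in MGE the groups overlapped (0.934). In CTX 2 regions just above the span were lost with KCl, chr14:20795842-20796797 (429 and 678 bp without KCl), which overlaps the noncoding gene Gm30108, and chr14:20797148-20797496 (292 and 301 bp). With the gene span alone the CTX groups overlapped (0.762), as they did without scaling (0.787), with 50 kb flanks (0.896) and at the gene ends (1.0), and the direction turned with only peaks of a −log10 q of at least 5 (2.94) and with equal called bases (1.21).

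Of the upstream kinases, Camkk1 had the least called length. Its gene is at chr11:73016043-73042073, and it had 60.4 and 49.4 bp per Mb called with KCl and 60 and 41.4 without in CTX, and 53.7 and 63.7 with KCl and 41.6 and 42.1 without in MGE. The CTX groups overlapped (ratio 1.08), and in MGE the KCl libraries were above the unstimulated ones, at 58.7 ± 7.07 against 41.8 ± 0.341 (1.4, exact permutation p = 0.33, n = 2). This ended with equal called bases (1.37) and turned with only peaks of a −log10 q of at least 5 (0.863). The region gained with KCl in MGE, chr11:73018423-73018868, had 240 and 446 bp called in the MGE KCl libraries and 347 bp in CTX unstimulated library 2. It reaches into the printed bases before the start of Camkk1 and overlaps the noncoding gene 4732414G09Rik. A second region just inside the gene, chr11:73019071-73019508, was called in 6 libraries with 267 to 438 bp, and in neither of the libraries numbered 2 of the unstimulated groups.

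Camkk2, whose product also activates AMP-activated protein kinase, is at chr5:122718380-122779522. It had 121 and 102 bp per Mb called with KCl and 117 and 125 without in CTX, and 107 and 112 with KCl and 132 and 150 without in MGE. In MGE the KCl libraries were below the unstimulated ones, at 110 ± 3.48 against 141 ± 12.8 (ratio 0.78, exact permutation p = 0.33, n = 2), and in CTX the groups overlapped (0.92). The MGE groups overlapped with neighbouring genes left out (0.99) and without scaling (0.953), and the ratio was above 1 for the gene span alone (1.28) and the 2 kb around the gene ends (1.51). The regions lost with KCl, chr5:122785563-122786007 in CTX and chr5:122786219-122787035 in MGE, lie within 2 kb of an end of Anapc5. The region lost in MGE was called in every CTX library, with and without KCl, at 319 to 627 bp. The start region of Camkk2, chr5:122778242-122779871, was called in all 8 libraries, with 1087 and 1279 bp with KCl and 245 and 1001 without in CTX, and 449 and 1342 with KCl and 503 and 414 without in MGE.

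Among the CaMKI genes, Camk1 (chr6:113334124-113343922) and Camk1g (chr1:193346346-193370355) had overlapping groups in both cultures. Camk1 is the broadly expressed founding member, and its ratio of KCl to unstimulated was 0.927 in CTX and 0.984 in MGE. Camk1g encodes CaMKI gamma, which anchors to membranes by a lipid tail. It had 155 and 122 bp per Mb called with KCl and 148 and 102 without in CTX, and 104 and 130 with KCl and 104 and 115 without in MGE, with ratios of 1.11 and 1.07. Camk4, the kinase that phosphorylates CREB, at chr18:32934941-33195767, had 140 and 170, 138 and 183, 129 and 160, and 120 and 189 bp per Mb called in the same order of groups. Its groups overlapped as well, with ratios of 0.966 and 0.936. Its region gained with KCl in MGE, chr18:33166981-33167422 (279 and 314 bp), and that lost in CTX, chr18:33156013-33156451, lie in the upper part of the gene. The region gained at Camk1g in CTX, chr1:193327649-193328145, lies in Lamb3 and was also called in MGE KCl library 2.

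At regions called in all 8 libraries, called length per region, summed over the peaks a library had there, was often greater with KCl, and several starts of kinase genes were among them. The members had 22 such regions, 14.9% of their 148, against 15.3% of all regions near protein-coding genes. In CTX 11 of the 22 (50%) had more called length in both KCl libraries than in both unstimulated libraries and 1 had less, while 35.8% and 6.86% of the 11426 such regions near all genes did. In MGE the numbers were 10 (45.5%) and 1, against 35.4% and 9.17%. In both cultures 5 (22.7%) had more and 1 less, against 17.3% and 1.93%. The region with less was each time chr11:6086124-6088283 above Camk2b, most of which lies beyond the 20 kb flank. The median ratio of called lengths was 1.21 in CTX and 1.18 in MGE over the 22 regions, and 1.13 in each over all 11426. These comparisons were chosen after the lengths had been seen, and the lengths are not divided by the Mb called. With that division 1 of the 22 had more in both cultures, the start region of Camk1g. The share over all 11426 regions with that division is not given here, so this count is not read as a result about the kinases.

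The 5 regions with more called length in both cultures lay at Camk1g, Camk2a, Camk2d and Camk4 and at Stard4, a neighbour of Camk4. The start region of Camk1g, chr1:193367802-193370315, had 2086 and 2512 bp in CTX KCl and 1212 and 1588 bp in CTX unstimulated libraries. In MGE it had 1958 and 2441 bp with KCl and 715 and 909 bp without, so that the summed lengths did not overlap in either culture, with ratios of 1.64 and 2.71. At the lower end of the span of Camk2a the ratios were 1.33 and 3.33. Camk2d had 1.2 and 1.21 at its start. At Camk4, chr18:32938472-32940434, which begins 3.53 kb inside the lower end of the span, had 1749 and 1794 bp with KCl and 1086 and 1492 without in CTX, and 1106 and 1265 with KCl and 1024 and 1083 without in MGE, with ratios of 1.37 and 1.13. Each of these had an exact permutation p of 0.056 over both cultures, the smallest possible, and an adjusted p of 0.29 over the 11426 regions. The start of Camk1, chr6:113342461-113344270, did not separate in either culture, with ratios of 0.954 and 1.15. At the first start of Camk1d, chr2:5712925-5715173, MGE libraries had more called length with KCl (1866 and 2124 against 1672 and 966 bp) and CTX libraries overlapped (1643 and 2079 against 1332 and 1754 bp).

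**Figure D3:**
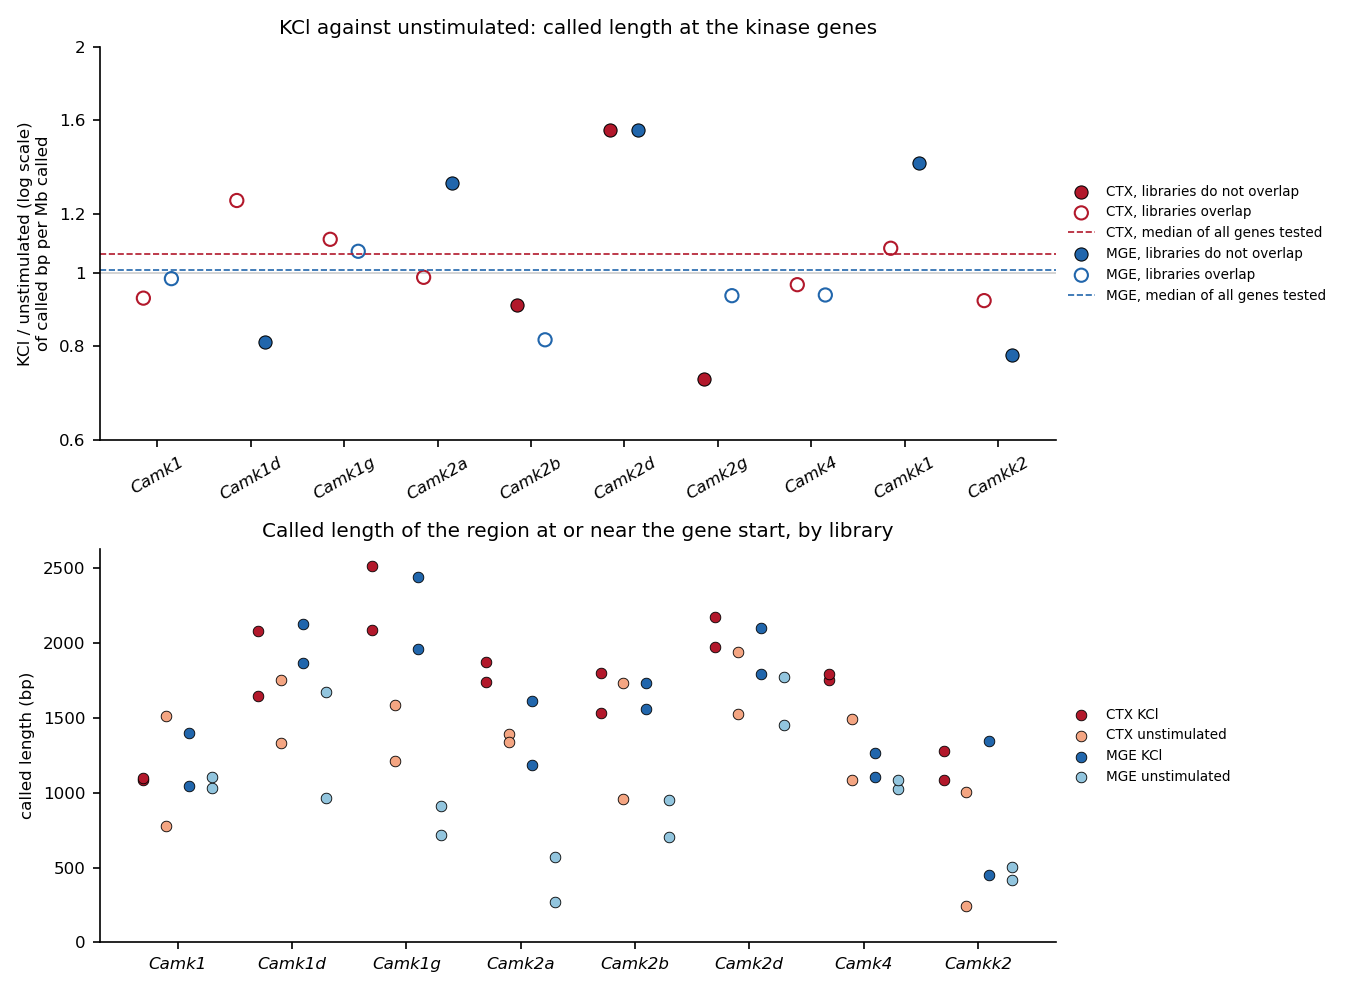
Upper panel: ratio of KCl to unstimulated means of called bp per Mb called at each gene (log axis), in CTX (red) and MGE (blue), filled where the libraries do not overlap, with dashed lines at the median of all genes tested. Lower panel: called length in bp (axis from 0), not divided by the Mb called, in each library of a region called in all 8 libraries at each of 8 genes. The region lies at or near the annotated start, or, at Camk2a and Camk4, whose starts were not matched, at or near the lower end of the span. At Camk1g, Camk2a, Camk2d and Camk4 both KCl libraries lie above both unstimulated libraries in each culture. With that division this holds for Camk1g alone, and the share over all regions is not given here.

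Over all 148 regions, those gained or lost with KCl were counted, a lost region having a peak in both unstimulated lists of a culture and in neither KCl list. In CTX 7 regions (4.73%) were gained and 7 (4.73%) lost, against 4.76% and 2.82% of all regions near protein-coding genes. In MGE 5 (3.38%) were gained and 4 (2.7%) lost, against 4.62% and 1.95%. The gains in CTX lay at Camk2d (3), Camk1d (3) and Camk1g (1), and the losses at Camk2g (2) and at Camk1d, Camk2a, Camk2b, Camk4 and Camkk2 (1 each). A region that falls short of the peak caller's threshold is not listed even where some acetylation is present. Of the 148 regions, 48 were called in a single library, a share that was 34.9% over all regions.

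Camk1d, whose product CaMKI delta is also known from granulocytes, spans 421 kb at chr2:5293457-5714860 and held 42 of the 148 regions. With 5, its count of regions called in one culture alone was the highest of the 10 genes, as was its count of regions. As shares of its regions, 7.14% were called in MGE alone and 4.76% in CTX alone, against 2.39% and 4.36% of all regions. These shares were 10% and 0% at Camk2g, 0% and 10.5% at Camk2b, and 4.76% each at Camk4. Called length was 182 and 288 bp per Mb called with KCl and 144 and 231 without in CTX, and 292 and 278 with KCl and 382 and 322 without in MGE. Of the MGE libraries, 1 lay below the highest CTX library, and the means were 318 ± 45.9 in MGE and 211 ± 62.1 in CTX (SD, n = 4, ratio 1.51, exact permutation p = 0.057, adjusted p = 0.22). In MGE the KCl libraries were below the unstimulated ones, at 285 ± 10.4 against 352 ± 42.4 (ratio 0.811, exact permutation p = 0.33, n = 2), and in CTX they overlapped (1.25). The MGE difference ended without scaling (0.976) and turned with only peaks of a −log10 q of at least 5 (1.44) and at the gene ends (1.29).

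Single regions of Camk1d were called in one culture alone. The inner start, 38.7 kb inside the gene from the first start and printed above, lies in chr2:5675223-5676930. This region had 494 and 1708 bp in CTX KCl and 889 and 1185 bp in CTX unstimulated libraries, with fold enrichments of 2.76 to 3.12, and no MGE peak. A second CTX-only region, chr2:5637452-5638579, had 245 to 1098 bp in the CTX libraries. In turn, chr2:5596208-5597393, chr2:5641172-5642528 and chr2:5647026-5647666 were called in the 4 MGE libraries only, with 454 to 992, 356 to 1272 and 512 to 641 bp. The merged region at the first start, chr2:5712925-5715173, was called in all 8 libraries, and the 300 bp window of that start in 7. A single region of the 148 was gained with KCl in both cultures, and it also lay in Camk1d. It was chr2:5613774-5614938, with 753 and 1165 bp in CTX KCl and 531 and 936 bp in MGE KCl libraries and no unstimulated peak. Its fold enrichments were 2.53 to 2.98. The next region, chr2:5615387-5616038, was gained in MGE alone (566 and 592 bp). In CTX chr2:5680804-5681343 and chr2:5729870-5730539, the latter 15 kb above the span in the noncoding gene Gm29857, were gained (251 and 540, 343 and 670 bp). Lost with KCl were chr2:5529299-5529863 in CTX and chr2:5377471-5378122 and chr2:5510949-5511627 in MGE. The region chr2:5377471-5378122 also had a peak in CTX unstimulated library 2.

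**Figure D4:**
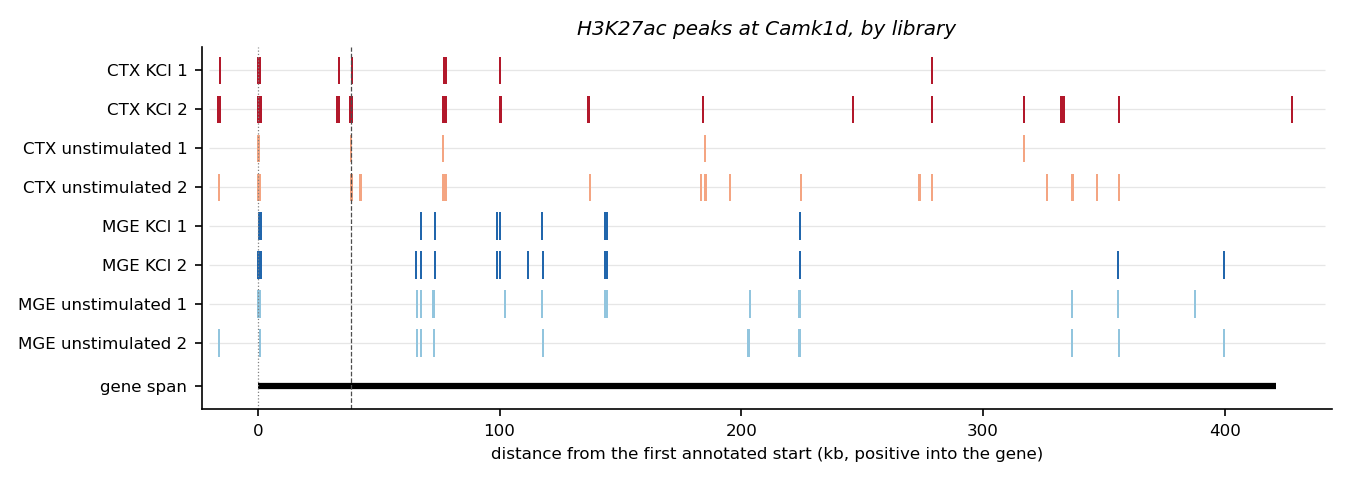
Peaks of each library (rows, coloured by group) along Camk1d, by distance in kb from the first annotated start (dotted line), positive into the gene, with the inner start as a dashed line and the gene span as a black bar; the shortest peaks are drawn slightly wider than to scale. The inner start at 38.7 kb has peaks in the 4 CTX libraries and in no MGE library.

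Across the 10 genes, 2 had all 4 MGE libraries above all 4 CTX libraries, Camk1 and Camk2g, and none the reverse. Over all genes the shares were 9.61% and 9.5%. The split was 0 higher and 1 lower without division by the Mb called and 1 higher and 2 lower with equal called bases. Shares over all genes at these 2 settings are not given here. Camk1 had 89.6 and 79.9 bp per Mb called with KCl and 98.7 and 84.2 without in CTX, and 135 and 106 with KCl and 123 and 122 without in MGE. Its means were 122 ± 11.9 in MGE and 88.1 ± 8.08 in CTX (SD, n = 4, ratio 1.38). For Camk2g they were 128 ± 15.1 and 91.0 ± 17.1 (ratio 1.41), with the lowest MGE value and the highest CTX value both 106 when rounded. Both had an exact permutation p of 0.029, the smallest possible, and an adjusted p of 0.15. With culture relabelled within treatment, the exact permutation p was 0.056 for both and for Camk2b. The difference at Camk1 depended on the setting. Without division by the Mb called its ratio was 0.972. The separation also ended at a −log10 q of at least 5 (1.05), with equal called bases (1.18), 50 kb flanks (1.03) and peaks counted (1.33). It held with the gene span alone (1.86), at the gene ends (1.4) and with neighbouring genes left out (1.77). Inside the gene, chr6:113341622-113342252 measured 571 to 605 bp in the MGE libraries and 0 to 427 bp in the CTX libraries, not divided by the Mb called. Besides the start region of Camk1, its 3 regions called in all 8 libraries lie at Brpf1 and Ogg1.

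At Camk2g the difference came with a region called in MGE alone, chr14:20747423-20749567, inside the gene. Its called length was 853 and 1956 bp in MGE KCl and 1377 and 1756 bp in MGE unstimulated libraries, at fold enrichments of 2.8 to 2.92. It was the longest of the 5 merged MGE-only regions of the 10 genes. The gene-level call ended without scaling (1.0), at a −log10 q of at least 5 (1.1), with equal called bases (1.12), at the gene ends (1.53) and with neighbouring genes left out (1.51), and the direction turned with peaks counted (0.896). The upper end of its span, chr14:20793157-20794063, was called in 7 libraries. The region called in all 8 at its lower end, chr14:20733759-20734680, lies in the neighbour Ndst2.

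Camk2b went the other way, with 212 ± 46.3 bp per Mb called in MGE and 279 ± 20.1 in CTX (SD, n = 4, ratio 0.758, exact permutation p = 0.057, adjusted p = 0.22). A CTX-only region lay inside it at chr11:6030092-6031290, with 285 and 997 bp in CTX KCl and 511 and 1199 bp in CTX unstimulated libraries. Another, chr11:5960390-5960958, lies in the neighbour Ykt6. Camk4 had 1 region of each kind: chr18:32971319-32971881 was called in MGE alone (488, 479, 361 and 376 bp) and chr18:33154855-33155418 in CTX alone (297, 546, 334 and 547 bp). Its libraries overlapped between the cultures in total called length (ratio 0.946, exact permutation p = 0.66). In Camk1g, the region in Lamb3 called in all 8 libraries was 1302 to 1652 bp long in CTX and 265 to 761 bp in MGE. The remaining ratios of MGE to CTX were 1.27 at Camk2a, 1.08 at Camkk2, 0.953 at Camkk1, 0.858 at Camk1g and 0.843 at Camk2d, with exact permutation p-values of 0.14 to 0.74. In all, 5 of the 148 regions (3.38%) were called in MGE alone and 5 (3.38%) in CTX alone, against 2.39% and 4.36% of all regions. The part that the makeup of the cultures, given above by marker genes, has in these differences was not tested.

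**Figure D5:**
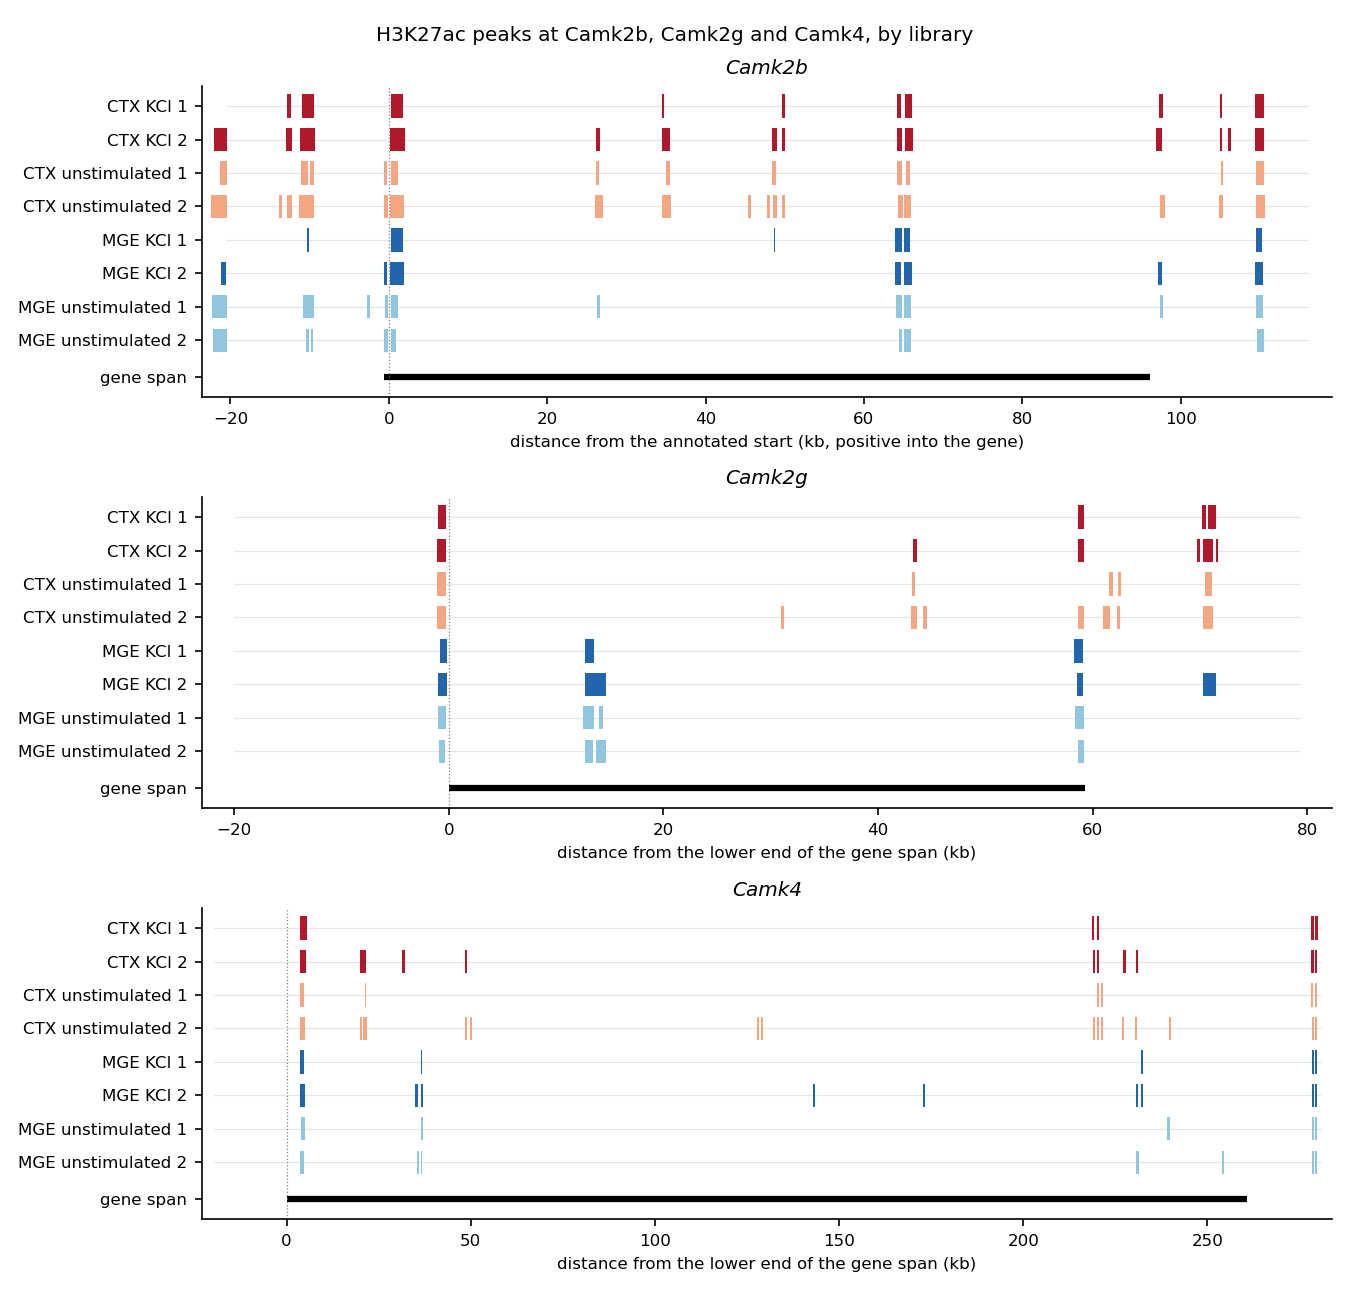
Peaks of each library (rows, coloured by group) along Camk2b, Camk2g and Camk4, by distance in kb from the annotated start (Camk2b) or the lower end of the gene span (Camk2g, Camk4), with the span as a black bar; the shortest peaks are drawn slightly wider than to scale. Inside Camk2g a region is called in the 4 MGE libraries only, inside Camk2b one in the 4 CTX libraries only, and Camk4 has one of each.

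The wider pathway was read from 28 further genes of calmodulin, its binding proteins, related kinases, calcineurin and phosphatases of CaMK. They are given with division by the Mb called only. How their separations depend on the scaling, threshold or window is not given here. With KCl, 3 were separated upward and 8 downward in CTX, where 23.1% and 13% of all genes were, and 4 and 8 in MGE, where 22.7% and 19.9% were. In both cultures, where the shares over all genes were 8.99% and 4.42%, 1 was higher and 4 were lower. The higher one was Ppm1e, a phosphatase that removes the activating phosphate of CaMK (269 against 208 bp per Mb called, ratio 1.29). Genes lower in both included the calmodulin gene Calm2 (68.8 against 84.8, 0.812), the pseudokinase Camkv (104 against 199, 0.526) and the calmodulin-binding neurogranin gene Nrgn (3.63 against 34.9, 0.104). At Nrgn the only KCl library with a called base was CTX KCl library 2, at 14.5, so that the ratio rests on values at or near 0. The median ratio over the list was 0.935 in CTX and 1.02 in MGE, against 1.06 and 1.01 over all genes. In CTX the largest separations included the doublecortin-like kinase Dclk3 (4.6 against 106, ratio 0.0432) and the calcineurin regulator Rcan2 (155 against 84.5, 1.83), and in MGE the calcineurin subunit Ppp3cc (62.1 against 152, 0.41). Dclk3 had 0 and 9.19 in the CTX KCl libraries, and its groups overlapped in MGE (30.3 against 28.2). Between the cultures, Rcan2 was higher in all 4 MGE libraries (286 ± 28.8 against 120 ± 41.5, SD, n = 4, ratio 2.39). The death-associated kinases Dapk1 (68.3 against 155, 0.441) and Dapk2 (3.15 against 66.2, 0.0476) and the phosphatase Ppm1f (53.6 against 91.9, 0.583) were lower in all 4. At Dapk2 the only MGE library with a called base was MGE KCl library 2, at 12.6. As at the 10 kinases, no adjusted p of the exact permutation tests was under 0.05, the lowest being 0.41 for KCl in both cultures and 0.15 between cultures. Between cultures 4 of the 28 genes and 2 of the 10 kinases had an unadjusted p under 0.05, as did 3303 of 17280 genes.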

How the data were processed

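H3K27ac was measured in 8 libraries of 4 groups, taken from the titles in the labels. The submitters' processing notes list the build mm10 and, with no roles or settings, MACS3 3.0.0a7, Bowtie2 2.3.3, deepTools 3.4.3 and cutadapt 1.18. Whether an input control was used is not given here in any label or header. The labels give 50 bp reads, 1% formaldehyde and the antibody ab4729. The deposited lists are broad peaks called separately in each library. Each peak carries the authors' fold enrichment, a ratio, and the authors' −log10 q, with a minimum of 1.3 to 1.35 per list, as deposited. Both were used only to describe or filter peaks within a list. Read counts were not used here, so depth is unknown, and a list with more reads can hold more and longer peaks. A further 29 peaks lay on other chromosomes and were not used here.

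Called bases of a gene are the bases of a library's peaks in its span and 20 kb to each side, divided by the Mb called in the library. Groups are separated when all libraries of one lie above all of the other. Two-sided exact permutation tests relabelled libraries (smallest p 0.33 for 2 against 2, 0.056 within both cultures, 0.029 for 4 against 4), with Benjamini-Hochberg adjustment over all genes with a called base in the compared libraries. Peaks of all lists were merged where they overlap by 1 bp or more. Gene spans and start windows are from RefSeq, GRCm38.p6; exons and introns were not used. All 28 listed pathway genes matched. The values of 1 of them are not reported here. All 10 members are named; of other pathway genes, those with separated groups, at most 8 a comparison, by size of difference. Members and lists were chosen with earlier results of these data known. Alternatives changed the scaling, threshold, window, called length, value, libraries and block; leaving out neighbouring genes and the comparison of lengths of regions called in all 8 libraries were chosen after seeing the data. Scripts used Python 3.11.15, numpy 2.4.6, pandas 2.3.3 and matplotlib 3.10.9. The counting of bases and peaks was tested on simulated peaks. Separation and the permutation tests were tested on values simulated around the means of real genes.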

Additional observations from a re-analysis of the deposited data

How the results depend on the processing

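The number of the 10 genes with separated groups depended on the processing. In CTX it was 3 with KCl (1 higher, 2 lower), and 5 with equal called bases (all higher), with the gene span alone (3 higher, 2 lower) and with peaks counted per 10000 peaks (1 higher, 4 lower), 1 at the 2 kb around gene ends (higher), and 5 to 8 when a library was left out. In MGE it was 5 (3 higher, 2 lower), and 3 when peaks needed a −log10 q of 5 or more (all lower), 2 at gene ends (both higher), and 6 to 9 without a library. In both cultures it was 1 (higher), and 0 at that q and at gene ends, 2 with the span alone and with 50 kb flanks (all higher), 4 with peaks counted (all lower), and 1 to 4 without a library. Between cultures it was 2 (both higher in MGE), and 1 with 50 kb flanks, at gene ends, with peaks counted and with neighbouring genes left out (higher in each), 1 without scaling (lower), 3 with equal called bases (1 higher, 2 lower), 0 at that q, and 2 to 4 without a library. Leaving out a library leaves fewer values that can overlap, so it can only add separated genes. Restricting all genes to the 12450 with at least 1 kb called kept all 10 members. Shares over all genes are not given here for the other settings or for the replicate block below. The counts describe the settings and are not read as results about the kinases.

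Among single genes, directions turned for Camk2g in CTX (2.94 at that q, 1.21 with equal called bases), Camk1d in MGE (1.44 at that q, 1.29 at gene ends), Camk2a in MGE (0.833 with the span alone, 0.877 with 50 kb flanks, 0.79 with peaks counted), Camkk1 in MGE (0.863 at that q), Camkk2 in MGE (1.28 with the span alone, 1.51 at gene ends), and between cultures Camk1 (0.972 without scaling) and Camk2g (0.896 with peaks counted). The cause was not tested. The ratio of Camk2d without a library was 1.44 to 1.68 in CTX and 1.34 to 1.76 in MGE.

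Regions called in all 8 libraries numbered 22, and 9 when peaks had to cover at least 50% of a region, 7 at a −log10 q of 5 or more, and 22 to 23 without a library. Regions gained in CTX numbered 7, and 1 at that q and 8 to 26 without a library (26 without CTX KCl library 1, 15 without CTX unstimulated library 2). Those lost in CTX numbered 7, and 1 at that q and 7 to 30 (30 without CTX unstimulated library 1, 13 without CTX KCl library 2). Those gained in MGE numbered 5, and 8 at 50% cover, 2 at that q and 6 to 15 (15 without MGE KCl library 1, 10 without MGE unstimulated library 1). Those lost in MGE numbered 4, and 0 at that q and 5 to 12 (12 and 11 without MGE unstimulated libraries 1 and 2, 9 without MGE KCl library 2). MGE-only regions numbered 5, and 3 at 50% cover, 1 at that q and 5 to 8 (8 without MGE unstimulated library 2). CTX-only regions numbered 5, and 2 at 50% cover, 2 at that q and 5 to 10 (10 and 8 without CTX unstimulated and KCl library 1). Of the regions called in all 8, 5 had more called length with KCl in both cultures, and 1 with lengths divided by the Mb called and 5 to 9 without a library (9 without CTX KCl library 1, CTX unstimulated library 2 or MGE KCl library 1). Shares over all regions are not given here for these other settings.

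Groups share replicate numbers, but a pair of numbers does not show that libraries were paired: the deviations of same-numbered libraries correlated at 0.477 in CTX and 0.0806 in MGE over 17280 genes. With the replicate number as a block, 7 genes were separated in CTX (4 higher, 3 lower), 6 in MGE (3 each way), 3 in both cultures (2 higher, 1 lower) and 4 between cultures (2 each way), and 8 regions had more called length with KCl in both. The gene lower in all 4 same-numbered pairs of both cultures was Camk2b. Read depth is unknown, so that low depth and low acetylation cannot be told apart where no peak is listed.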
